A study of Homo sapiens with 18 samples.

Results

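The genes described here encode the DNA replication fork: the proteins that open the double helix at an origin, prime and copy both strands, join the fragments of the lagging strand and rebuild chromatin behind the fork. The group was named gene by gene from what is known of replication. No measured value entered the rule, though earlier results of these data were known. Among the 26249 gene rows of each library, 39 of its 39 genes were found. They were measured by QuantSeq, which reads the 3′ ends of messenger RNAs, in 18 libraries of total RNA. The cells were AMO1 and XG1, both labelled multiple myeloma lines, a cancer of plasma cells. The title of the series calls the lines resistant and does not say to what. Each line was kept for 24 h in the solvent DMSO alone, or with YKL-5-124 at 100 nM or at 1000 nM, with 3 replicates in each of the 6 groups. YKL-5-124 is a covalent inhibitor of CDK7, a kinase that activates the cell cycle kinases and, as part of the transcription factor TFIIH, phosphorylates RNA polymerase II. The labels do not say whether replicates were separate cultures, so p-values measure the spread between these samples, which may be technical.

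A replication fork forms when CDC45 and the GINS complex join the MCM ring at a licensed origin and turn it into a moving helicase. Primase and polymerase alpha then lay down primers, the sliding clamp PCNA holds polymerases delta and epsilon on the template, and RPA covers the single-stranded DNA. Most of these genes are transcribed around the entry into S phase under the E2F factors, so their messenger RNAs are widely used as a measure of how many cells in a culture are replicating DNA. In RNA from a whole culture, fewer replicating cells and less RNA per cell cannot be told apart.

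Values are given as deposited, in FPKM, which divides by gene length although a 3′ library gives about 1 read per transcript. Levels of different genes are therefore not compared. Summed spike-in RNA stood at group means of 171365 to 184682 FPKM while the summed genes fell with dose, to 39.6% of DMSO in AMO1 and 73.3% in XG1 at 1000 nM. A change on this deposited scale is a change beside the spike-ins. The main counts, and the values whose call or direction differs, are also given on a relative scale, on which each library was divided by the ratio of its median gene. All log2 changes are of FPKM + 1, which understates the change of low genes. A gene was called when its adjusted p was under 0.05, and the call was made across all genes tested.

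The label of the lines was checked on plasma cell genes. In AMO1 with DMSO, 11 of 12 plasma cell genes averaged at least 1 FPKM, and they summed to between 8388 and 9428 FPKM. In the DMSO libraries labelled XG1, 6 of 12 did, summing to between 94.2 and 148, with IRF4, PRDM1, CD38, SLAMF7, POU2AF1 and CD27 under 1 FPKM. Of 10 erythroid genes, 10 averaged at least 1 FPKM in those libraries (summed 4565 to 4942 FPKM), against 2 in AMO1 (6.80 to 9.33 FPKM). The plasma cell label was thus not borne out in the libraries labelled XG1, and XG1 below means the libraries with that label. A pair of libraries stood apart from their groups. Replicate 2 of AMO1 at 1000 nM had the smallest gene total, 431965 FPKM, and it was the lowest of its group for 30 of the 39 fork genes. Replicate 2 of XG1 at 100 nM carried a loading of 0.823 on the second principal component of its line, which held 16.3% of the variance. By counts of members alone, DMSO libraries were uneven too. Replicate 2 of AMO1 with DMSO was the highest of its group for 29 of the 39, and replicate 3 of XG1 with DMSO for 28.

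In AMO1 the fork genes fell together. With DMSO alone they summed to 1534 ± 84.0 FPKM (mean ± SD over 3 libraries). The sum was 531 ± 25.3 FPKM at 100 nM and 256 ± 66.9 FPKM at 1000 nM, or 34.6% and 16.7% of DMSO. At 1000 nM, 39 of 39 members were called lower, among a background of 65.7% of the 10503 genes tested, and none was called higher. At 100 nM, 38 were called lower where the background was 29.5%, and RPA3 was the exception (adjusted p = 0.055, limma). POLE2 reached 1 FPKM in AMO1 only in its 3 DMSO libraries, so it passed the filter only by being higher there. With no filter on low values all 39 members kept their call at 1000 nM, where 6025 of 26249 genes were called lower. At 100 nM 2 members lost their call without the filter, where 1796 of 26249 genes were called lower. The median change of the members was −2.20 at 1000 nM and −1.40 at 100 nM, against −0.77 and −0.35 for all genes tested. On the relative scale 37 were called lower at 1000 nM, where 24.5% of genes were, and 36 at 100 nM, where 17.0% were. PRIM2 and RFC1 lost their call on that scale at both doses, and RPA3 was again not called at 100 nM. Without replicate 2 of AMO1 at 1000 nM, all 39 members were still called lower at that dose, where 6226 of 10457 genes were.

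**Figure D1:**
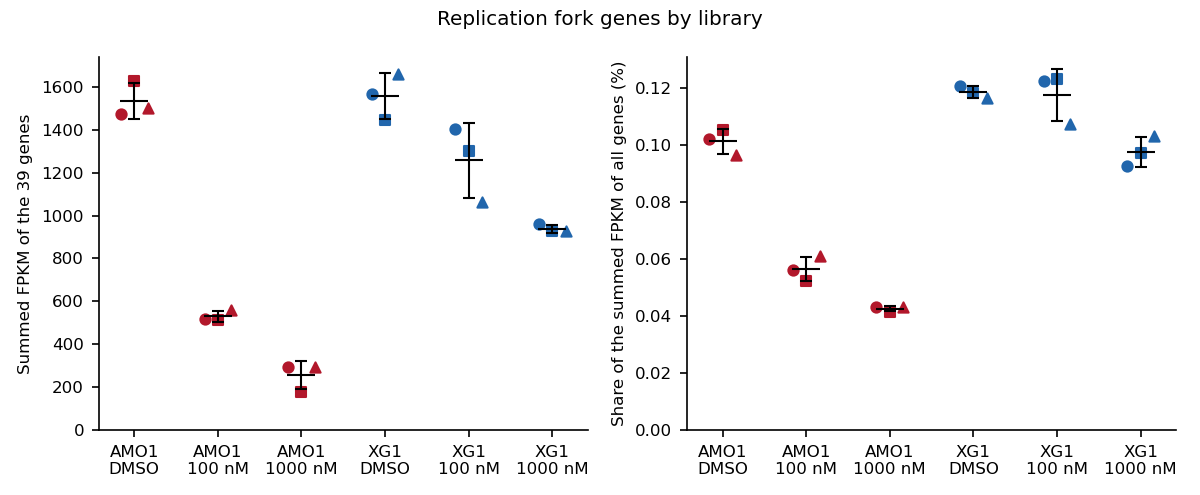
Summed level of the 39 replication fork genes in each library (left, FPKM) and their share of the summed FPKM of all genes (right, percent), with replicates 1, 2 and 3 as circle, square and triangle and bars for the mean ± SD of 3 libraries. In AMO1 the sum stepped down from 1534 to 531 and 256 FPKM and the share from 0.101% to 0.0425%, while in XG1 the sum stepped from 1556 to 1256 and 939 FPKM and the share from 0.118% to 0.0976%.

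The total alone does not show whether the fork genes moved with the rest of the RNA or beyond it. Their share of the summed FPKM of all genes was 0.101 ± 0.00435% in AMO1 with DMSO, 0.0564 ± 0.00430% at 100 nM and 0.0425 ± 0.000918% at 1000 nM, 55.7% and 42.0% of the DMSO share. The share differed little between the 1000 nM libraries, replicate 2 included. No library of a treated AMO1 group reached the lowest DMSO library for any of the 39 members, at either dose, where the share of all tested genes with that pattern was 68.6% at 1000 nM and 51.2% at 100 nM. Against its DMSO mean the median member stood at 31.2% at 100 nM, with DSCC1 the lowest (14.2%) and RPA3 the highest (61.1%). At 1000 nM it stood at 13.6%, with DTL the lowest (2.71%) and RFC1 the highest (41.0%). All 39 members had lower means at each step of dose as deposited, while on the relative scale the step between the doses was above 0 for PRIM2 and TIMELESS, neither called. The summed genes stepped down as well, to 62.2% and 39.6% of DMSO, so such steps are not particular to the fork genes. As deposited, 32 members had every 1000 nM library under every 100 nM library, as did 48.1% of genes tested. Of the log2 change seen at 1000 nM, a median of 61.4% was already present at 100 nM, from 45.0% for RPA3 to 92% for PRIM2. The added 1 FPKM compresses the change at 1000 nM most for members under 1 FPKM there, so their share is overstated. Examples are CDC7 (share 51.8%, at 36.8% and 5.48% of DMSO) and DTL (share 65.7%, at 16.6% and 2.71%). No such share for all genes is set beside these. Between the doses 27 members were called lower at 1000 nM, where 23.4% of genes were, and 19 on the relative scale, where 4.18% were. With no filter on low values 14 were called between the doses, where 500 of 26249 genes were called lower. Members below 1 FPKM appeared only in treated AMO1 libraries: 27, 25 and 28 of the 39 reached 1 FPKM in the 1000 nM replicates.

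Promoters are shown for the 3 members with the largest changes in AMO1 at 1000 nM, and the 1 with the smallest, among the 33 with a RefSeq window. DSCC1 had a larger change than RFC3 but no window. They were read for letters known as E2F sites, since E2F is the factor best known for these genes. They come from RefSeq (GRCh38.p14) and run 5′ to 3′ on the strand of the gene, from 250 bases before the start to 30 bases after it, with the matching letters in capitals.
GINS2, chr16:85688925-85689204, minus strand: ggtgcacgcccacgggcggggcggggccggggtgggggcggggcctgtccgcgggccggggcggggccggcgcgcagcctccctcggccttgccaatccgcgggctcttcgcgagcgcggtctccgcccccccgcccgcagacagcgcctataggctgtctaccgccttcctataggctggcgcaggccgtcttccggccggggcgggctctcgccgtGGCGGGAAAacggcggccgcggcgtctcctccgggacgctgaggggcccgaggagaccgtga
PCNA, chr20:5126593-5126872, minus strand: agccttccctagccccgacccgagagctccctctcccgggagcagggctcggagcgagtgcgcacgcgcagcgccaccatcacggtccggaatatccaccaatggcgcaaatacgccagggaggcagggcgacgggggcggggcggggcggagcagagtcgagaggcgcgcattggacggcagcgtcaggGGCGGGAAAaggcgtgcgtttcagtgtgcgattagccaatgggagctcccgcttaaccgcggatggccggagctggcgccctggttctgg
RFC3, chr13:33817899-33818178, plus strand: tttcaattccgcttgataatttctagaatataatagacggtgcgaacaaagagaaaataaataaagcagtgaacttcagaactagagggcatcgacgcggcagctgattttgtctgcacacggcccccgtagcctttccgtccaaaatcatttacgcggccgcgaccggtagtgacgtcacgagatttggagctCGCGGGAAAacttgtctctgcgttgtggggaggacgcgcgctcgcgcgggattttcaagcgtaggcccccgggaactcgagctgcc
PRIM2, chr6:57314555-57314834, plus strand: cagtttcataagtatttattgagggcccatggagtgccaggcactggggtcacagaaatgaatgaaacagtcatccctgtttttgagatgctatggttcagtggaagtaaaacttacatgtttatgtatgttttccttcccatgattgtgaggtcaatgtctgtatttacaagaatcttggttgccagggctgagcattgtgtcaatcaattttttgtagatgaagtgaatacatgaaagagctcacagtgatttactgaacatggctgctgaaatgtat
PRIM2, chr6:57317380-57317659, plus strand: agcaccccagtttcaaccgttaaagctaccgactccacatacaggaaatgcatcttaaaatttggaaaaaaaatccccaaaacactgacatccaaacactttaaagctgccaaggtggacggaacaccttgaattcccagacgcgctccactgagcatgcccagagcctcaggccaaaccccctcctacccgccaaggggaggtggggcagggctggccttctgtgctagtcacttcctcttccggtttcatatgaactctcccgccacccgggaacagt
GINS2, PCNA and RFC3 each held the letters, as overlapping words read from the opposite strand, and neither window of PRIM2 held them. A second annotated start of PCNA, at chr20:5119929-5120208, had no match. The words searched, on both strands, were TTTCCCGC, TTTCGCGC, TTTGCCGC, TTTGGCGC, TTCCCGCC and TTCCCGCG, which can overlap each other and the GC box GGGCGG. RefSeq windows matched 33 members, by symbol, with 42 windows. An E2F word stood in 22 of those 42 windows (52.4%), against 6.34% of 35116 windows of all genes and 10.2% of 11372 windows of genes tested in AMO1. CCAAT stood in 47.6% of member windows, 33.6% of all windows and 34.9% of windows of genes tested in AMO1. For the GC box the values were 71.4%, 44.1% and 66.3%. For TTTGAA or TTCGAA, letters of the cell cycle element CHR, they were 4.76%, 15.6% and 11.3%. The median change in AMO1 at 1000 nM was −2.37 for the 21 genes with an E2F word in a window and −2.15 for the 12 without. A match describes letters in a window and is not a measured site.

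The helicase genes, 5 of 5, were called lower in AMO1 at both doses on both scales. CDC45 and the 4 GINS subunits form the moving helicase with the MCM ring. GINS2 had the largest change of all members: it measured 105, 109 and 117 FPKM in DMSO, 22.01, 22.6 and 25.8 at 100 nM and 6.70, 4.85 and 10.0 at 1000 nM in AMO1. The 3 groups did not overlap, and the log2 change was −3.81 ± 0.23 (SE) at 1000 nM (adjusted p = 2.1e-08, limma) and −2.19 ± 0.23 at 100 nM. CDC45 measured 15.7, 18.5 and 14.5 FPKM in DMSO, 5.12, 3.35 and 3.66 at 100 nM and 0.757, 0.724 and 1.45 at 1000 nM, a change of −3.13 ± 0.21 at 1000 nM. GINS4, the smallest of the set, measured 2.47, 4.47 and 3.96 FPKM in DMSO, 0.729, 1.17 and 1.598 at 100 nM and 0.725, 0.564 and 0.799 at 1000 nM. Its treated groups overlapped each other but not DMSO, and its change was −1.43 ± 0.21. GINS1 and GINS3 lay between, at −2.54 and −2.29. RefSeq places GINS2 over the gene GSE1, so reads from the pair cannot be told apart if strand was not used.

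Origin recognition and the firing kinase came next along the pathway. ORC1 and ORC6 are subunits of the complex that marks origins, and CDC7 with its activator DBF4 is the kinase that fires them. ORC6 measured 40.1, 52.7 and 43.9 FPKM in DMSO, 14.7, 15.6 and 14.6 at 100 nM and 8.19, 5.497 and 8.98 at 1000 nM in AMO1, with no overlap between groups and a change of −2.46 ± 0.21 at 1000 nM. DBF4 measured 11.1, 11.4 and 10.6 FPKM in DMSO, 4.12, 5.28 and 3.70 at 100 nM and 3.60, 1.56 and 2.71 at 1000 nM, also without overlap, for −1.77 ± 0.22. CDC7 stood at 36.8% of DMSO at 100 nM and 5.48% at 1000 nM, and its change of −1.89 was compressed by the added 1 FPKM, since its DMSO mean was 3.40 FPKM. ORC1 changed by −2.203. The step between the doses was called for ORC6 and CDC7, and not for ORC1 or DBF4 (adjusted p = 0.06 and 0.06, limma).

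The subunits of primase and polymerase alpha did not move alike. PRIM1 is the catalytic subunit of primase and PRIM2 its large subunit. PRIM1 measured 16.6, 13.2 and 13.5 FPKM in DMSO, 3.84, 2.37 and 3.92 at 100 nM and 2.77, 0.730 and 1.65 at 1000 nM in AMO1, a change of −2.57 ± 0.26 at 1000 nM. PRIM2 measured 2.82, 4.40 and 3.12 FPKM in DMSO, 0.986, 0.987 and 2.06 at 100 nM and 1.88, 0.810 and 0.955 at 1000 nM. Its treated groups overlapped each other but not DMSO, with changes of −0.94 ± 0.24 at 100 nM and −1.02 ± 0.24 at 1000 nM. On the relative scale PRIM2 was not called at either dose (−0.39 ± 0.21 at 1000 nM, adjusted p = 0.15, limma). The polymerase subunits POLA1 and POLA2 changed by −1.94 and −2.19. Of the 4 genes, only POLA2 was called lower at 1000 nM than at 100 nM (−1.02). PRIM2 overlaps RAB23 in RefSeq.

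The replicative polymerases are delta, which copies the lagging strand, and epsilon, which copies the leading strand. POLD3, an accessory subunit of delta, measured 11.9, 11.8 and 8.46 FPKM in DMSO, 3.49, 2.97 and 3.998 at 100 nM and 1.54, 1.24 and 1.20 at 1000 nM in AMO1 and changed by −2.32 ± 0.19 at 1000 nM. POLD2 measured 278, 307 and 294 FPKM in DMSO, 134, 126 and 126 at 100 nM and 80.4, 50.6 and 71.1 at 1000 nM and changed by −2.13 ± 0.20. The catalytic subunit POLD1 changed by −2.18, so the 3 delta genes lay within 0.19 of each other. For epsilon, POLE3, a histone-fold subunit, measured 123, 147 and 111 FPKM in DMSO, 58.7, 53.4 and 65.6 at 100 nM and 36.0, 25.4 and 41.5 at 1000 nM and changed by −1.88 ± 0.22. The catalytic subunit POLE measured 2.67, 3.89 and 2.70 FPKM in DMSO, 0.694, 0.822 and 1.43 at 100 nM and 0.523, 0.548 and 0.437 at 1000 nM and changed by −1.43 ± 0.20. POLE2 changed by −1.58. The median of the epsilon genes, −1.58, was the smallest of the 11 roles as deposited, and that of delta was −2.18. On the relative scale the smallest was that of RPA (−0.79), with epsilon at −0.92. With DMSO means of 3.09 and 2.62 FPKM, the fold of POLE and POLE2 is the more compressed by the added 1 FPKM: their means at 1000 nM were 16.3% and 8.62% of DMSO, against 23.0% for POLD2.

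The sliding clamp and its loaders held several of the largest changes. PCNA, the clamp, measured 187, 179 and 205 FPKM in DMSO, 48.8, 42.2 and 45.1 at 100 nM and 19.3, 8.76 and 15.0 at 1000 nM in AMO1. Its groups lay far apart, for a change of −3.70 ± 0.24 at 1000 nM and −2.04 ± 0.24 at 100 nM (adjusted p = 4.6e-08 and 4.5e-05, limma). The clamp loader is a ring of a large subunit, RFC1, and 4 small ones, RFC2 to RFC5. RFC1 measured 14.6, 19.7 and 13.9 FPKM in DMSO, 8.01, 10.6 and 9.32 at 100 nM and 7.04, 4.40 and 8.31 at 1000 nM, a change of −1.19 ± 0.23. The small subunits changed by −2.12 (RFC2), −3.32 (RFC3), −3.23 (RFC4) and −2.67 (RFC5). Relative to the median gene RFC1 was not called (−0.31 ± 0.12, adjusted p = 0.058, limma), while the 4 small subunits were. DSCC1, part of the alternative loader that also serves sister chromatid cohesion, measured 31.9, 39.2 and 29.8 FPKM in DMSO, 3.23, 5.30 and 5.76 at 100 nM and 2.03, 1.32 and 2.02 at 1000 nM. It had the largest change at 100 nM, −2.61 ± 0.22. PCNA has 4 named pseudogenes in RefSeq, and reads may be split between such copies.

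RPA is the trimer on single-stranded DNA, and its genes had a median change of −1.72 at 1000 nM, against −3.23 for the clamp genes. RPA2 measured 69.1, 78.8 and 74.0 FPKM in DMSO, 32.6, 31.8 and 31.1 at 100 nM and 20.03, 10.6 and 19.2 at 1000 nM in AMO1 and changed by −2.14 ± 0.23 at 1000 nM. RPA3, the smallest subunit, measured 58.5, 59.8 and 64.0 FPKM in DMSO, 32.2, 40.1 and 39.1 at 100 nM and 25.8, 11.8 and 26.0 at 1000 nM. Its 100 nM libraries all lay under DMSO, but the change of −0.70 ± 0.26 was not called, and at 1000 nM the change was −1.56 ± 0.26. RPA1 changed by −1.72. In the joining of Okazaki fragments, the flap nuclease FEN1 and the ligase LIG1 act in turn. FEN1 measured 157, 174 and 147 FPKM in DMSO, 35.4, 35.1 and 55.5 at 100 nM and 17.0, 10.99 and 22.7 at 1000 nM, a change of −3.22 ± 0.26 at 1000 nM. LIG1 measured 24.2, 28.1 and 19.4 FPKM in DMSO, 8.68, 7.34 and 9.07 at 100 nM and 6.03, 3.52 and 4.39 at 1000 nM, a change of −2.15 ± 0.21. Neither gene's groups overlapped. RPA3 overlaps UMAD1 in RefSeq, and RPA2, RPA3 and FEN1 have named pseudogenes.

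Behind the fork, the chaperone CAF-1 places new histones, and its large and middle subunits are CHAF1A and CHAF1B. CHAF1A measured 32.5, 36.0 and 28.6 FPKM in DMSO, 7.39, 7.86 and 9.67 at 100 nM and 2.39, 2.48 and 3.01 at 1000 nM in AMO1, a change of −3.20 ± 0.19 at 1000 nM. CHAF1B measured 7.60, 9.17 and 9.15 FPKM in DMSO, 2.25, 3.47 and 2.36 at 100 nM and 0.705, 1.00 and 0.531 at 1000 nM, a change of −2.47 ± 0.19. ATAD2, a chromatin ATPase, changed by −2.99. The fork protection genes keep the helicase and polymerases together and signal to the checkpoint. Among them TIPIN measured 13.9, 17.3 and 15.3 FPKM in DMSO, 5.52, 6.16 and 4.36 at 100 nM and 2.91, 0.954 and 2.05 at 1000 nM, a change of −2.52 ± 0.24 at 1000 nM with no overlap between groups. TIMELESS, whose protein pairs with that of TIPIN, measured 21.5, 26.2 and 18.3 FPKM in DMSO, 8.61, 9.08 and 11.5 at 100 nM and 6.77, 5.39 and 10.0 at 1000 nM. Its treated groups overlapped, and its change was −1.48 ± 0.23. CLSPN, the checkpoint mediator, changed by −2.37, and WDHD1, which ties polymerase alpha to the helicase, by −1.596. DTL directs the ubiquitin ligase that removes the licensing factor CDT1 at PCNA. It measured 10.9, 11.4 and 9.74 FPKM in DMSO, 1.41, 1.55 and 2.38 at 100 nM and 0.323, 0.201 and 0.346 at 1000 nM, and at 2.71% of DMSO it had the lowest proportion of any member (log2 change −3.18 ± 0.19).

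**Figure D2:**
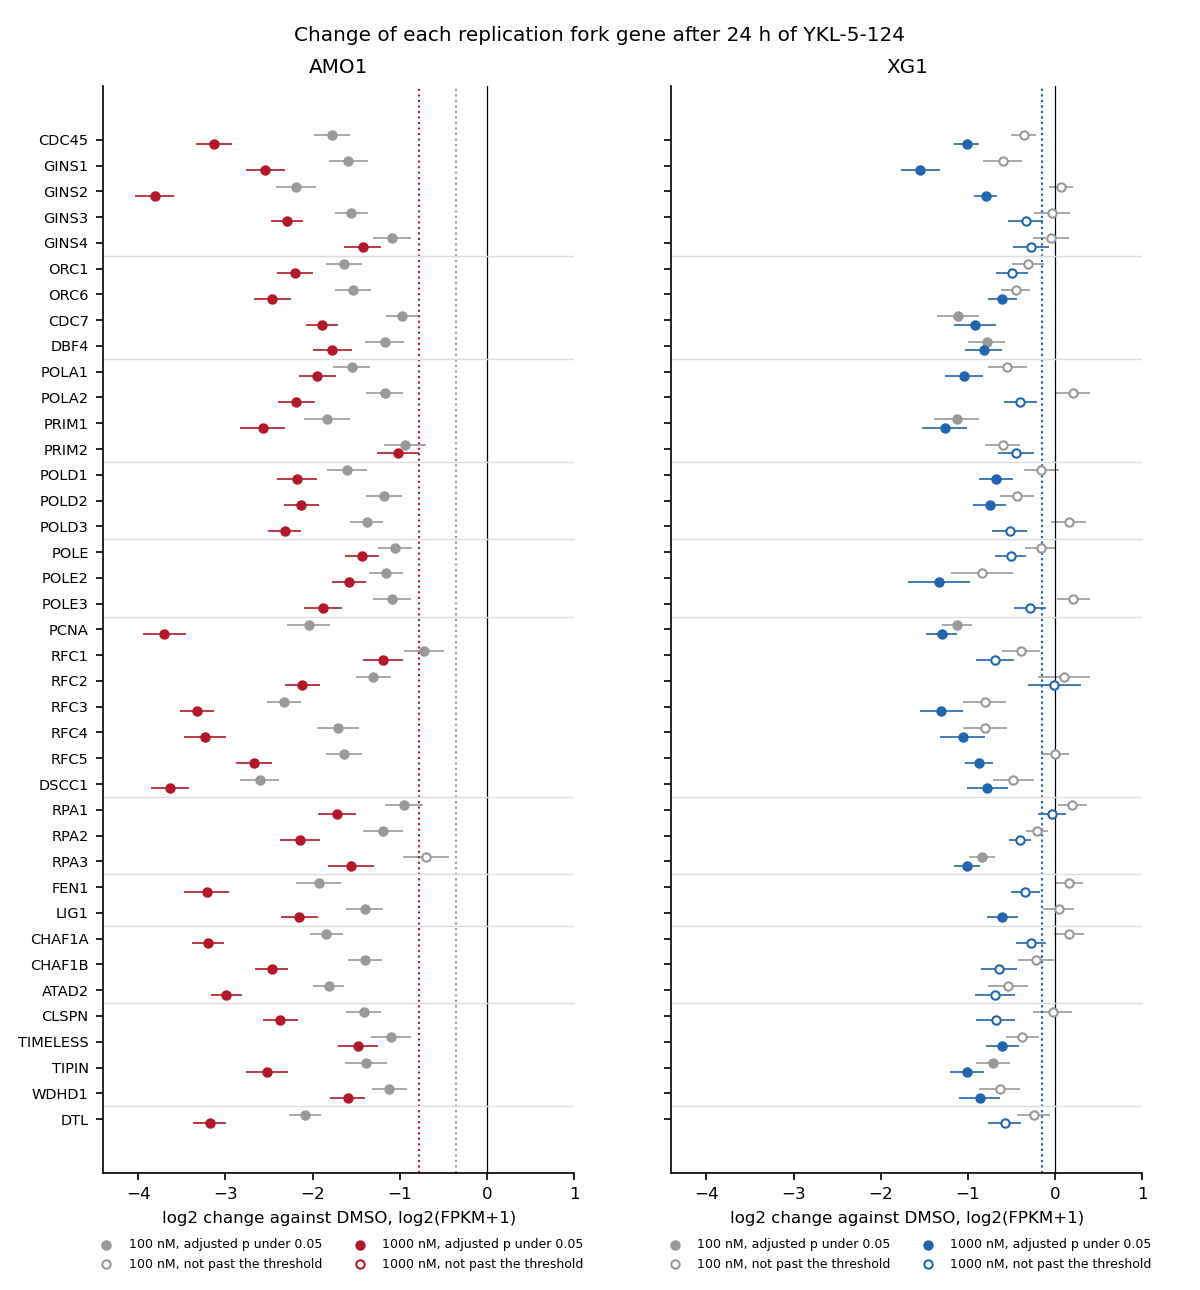
Log2 change against DMSO of each of the 39 genes, in role order, in AMO1 (left) and XG1 (right), with the SE of the limma fit as bars; grey points are 100 nM and coloured points 1000 nM, filled where the adjusted p was under 0.05, and dotted lines mark the median of all genes tested. Every AMO1 point at 1000 nM lies left of the median of all genes (−0.77), from GINS2 at −3.81 to PRIM2 at −1.02, whereas the XG1 points at 1000 nM run from GINS1 at −1.55 to RFC2 at −0.01.

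In the libraries labelled XG1 fewer of the fork genes were called lower. With DMSO alone they summed to 1556 ± 108 FPKM, against 1256 ± 173 at 100 nM and 939 ± 18.8 at 1000 nM, or 80.7% and 60.3% of DMSO. The share of all genes was level at 100 nM, 0.118 ± 0.00901% against 0.118 ± 0.00210%, and was 0.0976 ± 0.00519% at 1000 nM. At 1000 nM 21 members were called lower, among a background of 13.2% of the 11810 genes tested, and none higher. Relative to the median gene 17 were, where 10.2% of genes were, among them RFC1, which was not called on the deposited scale. The median member changed by −0.68, against −0.15 for all genes tested. The count moved with single libraries: it was 13 without replicate 2 and 12 without replicate 3 of the 1000 nM group. It was 12, 12 and 11 without replicates 1, 2 and 3 of the DMSO group. Over all genes the lower calls moved too, from 1558 of 11810 to 887 of 11699 and 911 of 11713 without those 1000 nM libraries. Without the DMSO libraries they were 934 of 11699, 1175 of 11705 and 756 of 11649. With no filter on low values 10 members were called, where 914 of 26249 genes were called lower. Other settings moved the count up. With only the compared groups 9 further members were called and none was lost, where 2206 of 11322 genes were called lower. With the filter at 5 FPKM 6 further members were called and none was lost, where 1594 of 8468 genes were. The highest count on leaving out 1 library was 24. Members not called in the main fit are thus not shown to be unchanged.

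At 1000 nM in XG1 the largest changes were in GINS1, POLE2, PCNA, RFC3 and PRIM1. GINS1 measured 17.9, 14.8 and 19.5 FPKM in DMSO, 13.4, 12.3 and 8.17 at 100 nM and 5.82, 6.10 and 4.08 at 1000 nM, a change of −1.55 ± 0.22 (adjusted p = 0.0011, limma). PCNA measured 247, 189.9 and 249 FPKM in DMSO, 118, 78.3 and 119 at 100 nM and 95.1, 91.5 and 87.5 at 1000 nM, a change of −1.30 ± 0.17. In both genes every treated library lay under every DMSO library. POLE2 varied more, with 17.0, 18.6 and 13.8 FPKM in DMSO, 14.8, 6.36 and 6.94 at 100 nM and 3.59, 10.4 and 5.26 at 1000 nM, and its change was −1.33 ± 0.35. Counting these, 36 of 39 members had all 1000 nM libraries under all DMSO libraries, where 30.1% of genes did. The exceptions were GINS4, RFC2 and RPA1. RFC2 measured 5.34, 5.80 and 6.93 FPKM in DMSO, 9.60, 7.14 and 3.89 at 100 nM and 5.19, 8.68 and 4.62 at 1000 nM and RPA1 had a change of −0.03 ± 0.16, so no fall was detectable in either, and on the relative scale both had a change above 0 that was not called. By role, called members were 3 of 5 helicase genes, 3 of 4 in origin firing, 2 of 4 in primase and polymerase alpha, 2 of 3 in delta, 1 of 3 in epsilon and 5 of 7 among clamp genes. They were 1 of 3 for RPA, 1 of 2 in the joining of Okazaki fragments and 3 of 4 in fork protection. Relative to the median gene the count was 1 of 4 in origin firing, 0 of 3 in epsilon, 6 of 7 among clamp genes, 0 of 2 in Okazaki joining and 2 of 4 in fork protection, with the other roles as above. None of the 3 chromatin genes was called in XG1 (CHAF1A −0.28, CHAF1B −0.64, ATAD2 −0.69), nor was FEN1 or DTL, each of which was called lower in AMO1 at both doses.

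At 100 nM in XG1 the members split. CDC7, DBF4, PCNA, PRIM1, RPA3 and TIPIN, 6 in all, were called lower, where the background was 10.0% of genes, and none was called higher. Relative to the median gene 5 were, without TIPIN, where 7.31% of genes were. The count was 11 without replicate 1 and 3 without replicate 2 of the 100 nM group, the second being the library that stood apart. It was 3 and 2 without replicates 1 and 3 of the DMSO group, and 3 with no filter on low values. Over all genes the lower calls moved too, from 1181 of 11810 to 1636 of 11691 and 841 of 11594 without those 100 nM libraries. They were 567 of 11699 and 415 of 11649 without those DMSO libraries, and 549 of 26249 with no filter. PRIM1 measured 16.7, 13.8 and 20.2 FPKM in DMSO, 7.31, 4.92 and 9.86 at 100 nM and 7.68, 7.03 and 4.75 at 1000 nM and RPA3 66.6, 56.2 and 63.1 FPKM in DMSO, 39.5, 35.6 and 28.3 at 100 nM and 29.5, 32.3 and 28.8 at 1000 nM. CDC7 measured 16.4, 15.6 and 17.9 FPKM in DMSO, 7.42, 5.60 and 8.66 at 100 nM and 10.5, 9.74 and 5.504 at 1000 nM. For these genes, as for PCNA, the 100 nM libraries lay under DMSO and overlapped those at 1000 nM. The mean of PCNA was 46.0% of DMSO at 100 nM and 40.0% at 1000 nM, and that of CDC7 43.5% and 51.7%. The other 33 members were not called at 100 nM, and 9 had a change above 0, or 15 on the relative scale.

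GINS2 and RFC5 showed the other pattern in XG1. GINS2 measured 68.4, 69.4 and 78.8 FPKM in DMSO, 74.5, 85.0 and 67.7 at 100 nM and 44.5, 37.9 and 41.0 at 1000 nM, so its 100 nM and DMSO libraries overlapped and its 1000 nM libraries lay under all of them. RFC5 measured 70.2, 66.6 and 85.5 FPKM in DMSO, 84.9, 71.3 and 65.7 at 100 nM and 46.1, 38.9 and 34.8 at 1000 nM. The step from 100 to 1000 nM was −0.86 ± 0.14 for GINS2 and −0.87 ± 0.16 for RFC5 (adjusted p = 0.03 and 0.047, limma). They were the 2 members called lower between the XG1 doses, where 0.322% of genes were, and 4 were on the relative scale, where 0.754% were, with GINS1 and POLD3 added. The count was 0 without replicate 2 or 3 at 1000 nM, without replicate 1 or 2 at 100 nM, or with no filter on low values. It was 5 without replicate 3 at 100 nM. Over all genes 38 of 11810 were called lower in the main fit. In the fits with a count of 0 there were, in that order, 2 of 11699, 2 of 11713, 4 of 11691, 3 of 11594 and 5 of 26249. Without replicate 3 at 100 nM there were 78 of 11696. FEN1, at 92.7, 89.7 and 88.9 FPKM in DMSO, 119, 114 and 75.9 at 100 nM and 67.4, 72.5 and 73.8 at 1000 nM, and POLE3, at 113, 114 and 118 FPKM in DMSO, 153, 166 and 93.2 at 100 nM and 92.4, 92.8 and 97.3 at 1000 nM, had means above DMSO at 100 nM that were not called. Replicate 3 of the 100 nM group was the lowest of its group for 27 of the 39 members. Without that replicate POLE3 was called higher at 100 nM and CDC7, PCNA, PRIM1 and RPA3 lower.

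**Figure D3:**
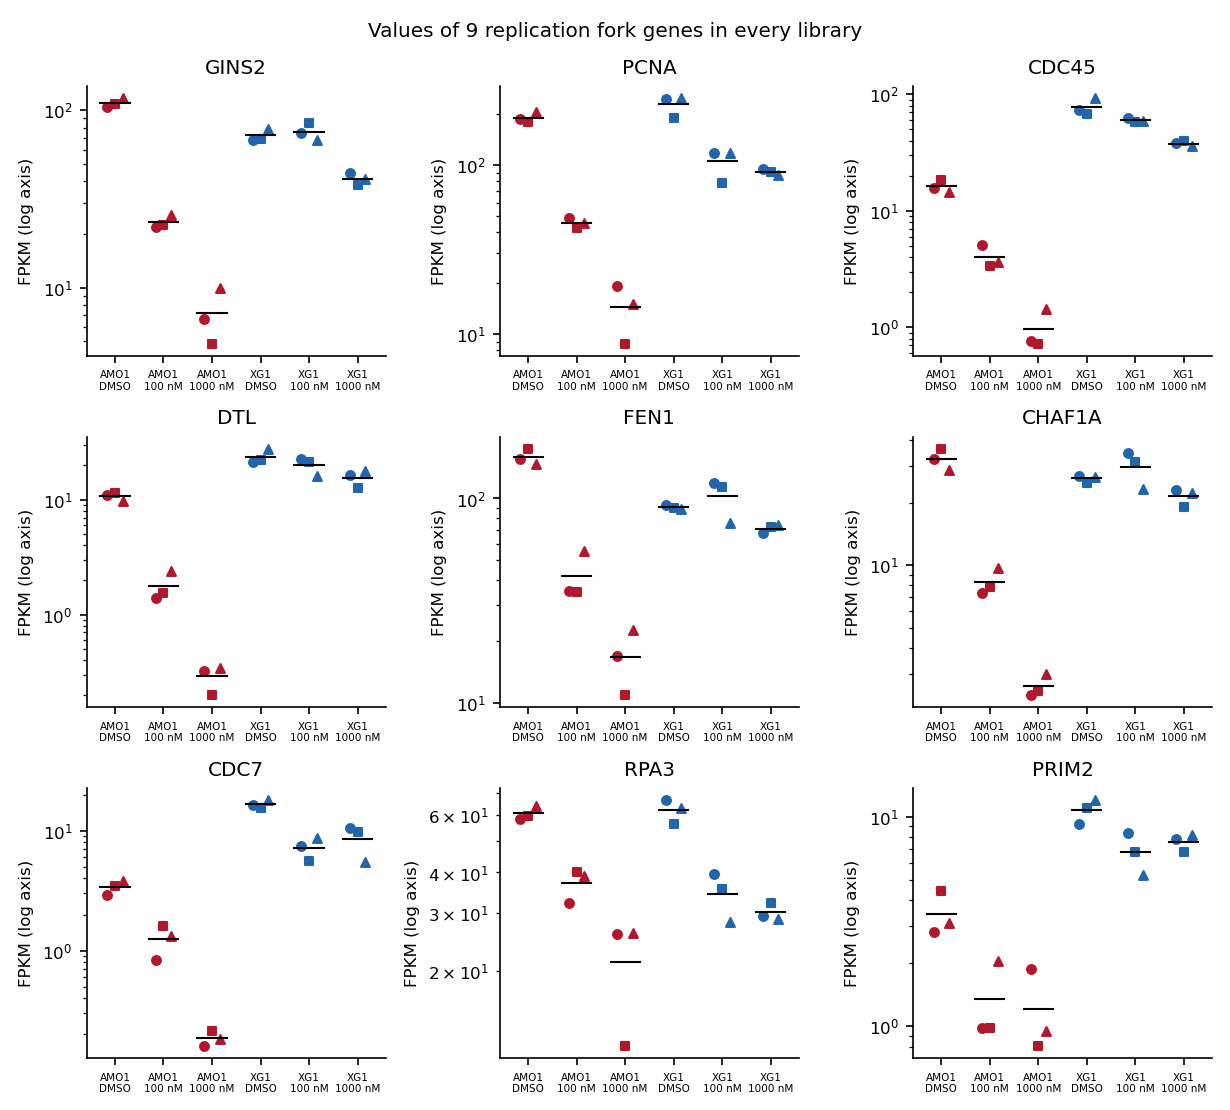
FPKM of 9 fork genes in each of the 18 libraries on log axes, AMO1 in red and XG1 in blue, with replicates 1, 2 and 3 as circle, square and triangle and a line at the mean of each group. In AMO1 each gene steps down with dose, while in XG1 GINS2 stays at its DMSO level at 100 nM (75.7 against 72.2 FPKM) and PCNA, CDC7 and RPA3 are at 43.5% to 55.6% of DMSO by 100 nM.

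The difference between the lines was tested directly, as the XG1 change minus the AMO1 change. At 1000 nM it was above 0 for 39 members and called for 34, where 32.8% of genes were called in that direction, and none was called in the other. With the relative scale RFC1 and RPA3 were below 0, neither called. Relative to the median gene 30 were, where 10.1% of genes were. At 100 nM 25 were called, where 5.37% of genes were, and on the relative scale 26, where 6.28% were. The members not called at 1000 nM were POLE2, PRIM2, RFC1, RPA3 and WDHD1. The largest differences at 1000 nM were in GINS2 (3.02 ± 0.26), CHAF1A (2.92 ± 0.23), FEN1 (2.88 ± 0.32), DSCC1 (2.86 ± 0.33) and DTL (2.60 ± 0.25). In XG1 CHAF1A measured 26.9, 24.9 and 26.7 FPKM in DMSO, 34.7, 31.3 and 23.2 at 100 nM and 23.1, 19.0 and 22.3 at 1000 nM, and DTL 21.5, 22.2 and 27.5 FPKM in DMSO, 22.5, 21.2 and 16.2 at 100 nM and 16.3, 12.7 and 17.8 at 1000 nM. For DSCC1 the XG1 values were 19.9, 17.6 and 19.8 FPKM in DMSO, 17.8, 15.7 and 8.55 at 100 nM and 11.8, 10.9 and 9.53 at 1000 nM. In contrast, PCNA differed between the lines at 1000 nM (2.40 ± 0.31) and not by a call at 100 nM (0.92 ± 0.31, adjusted p = 0.093, limma). For RPA3 the differences were 0.54 ± 0.32 and −0.14 ± 0.32, neither called. Because the libraries labelled XG1 lack several defining plasma cell genes, a difference between 2 myeloma lines and a difference between cell types cannot be told apart here.

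**Figure D4:**
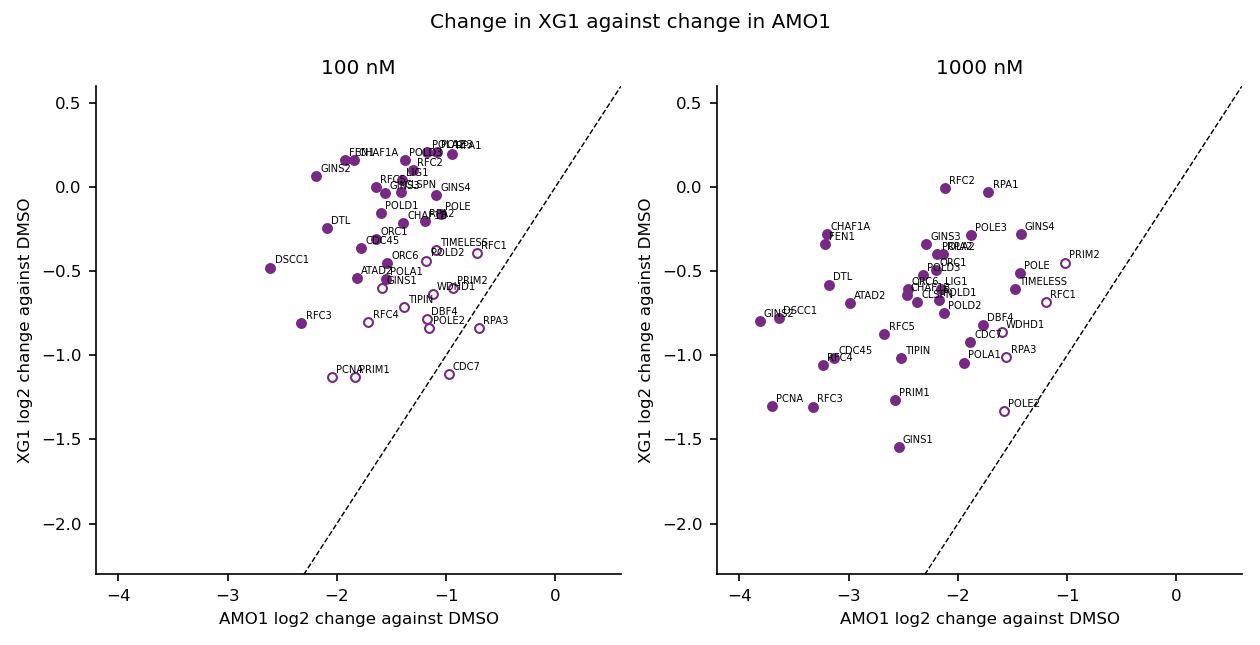
XG1 change against AMO1 change for each of the 39 genes at 100 nM (left) and 1000 nM (right), in log2 of FPKM + 1, filled where the difference between the lines was called; the dashed line marks equal change. All 39 genes lie above the line at 1000 nM and 37 at 100 nM, with CHAF1A, FEN1 and GINS2 far from it and POLE2, RPA3 and PRIM2 near it.

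The order of the members was only loosely shared between the lines. Across the 39 genes the changes of AMO1 and XG1 gave Pearson r = 0.264 and Spearman rho = 0.285 at 1000 nM, and 0.0459 and 0.0243 at 100 nM. Genes are not independent replicates, and the points share the libraries of their line, so these are descriptions with no test.

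Before treatment, as deposited, members were called different between the lines no more often than all genes. In DMSO, 15 of 39 members were called higher in XG1 than in AMO1, where 45.0% of 12792 genes were, and 4 were called lower, where 19.8% of genes were. Relative to the median gene 12 were higher and 16 lower, where 32.3% and 33.5% of genes were. The lower ones as deposited were DSCC1, FEN1, GINS2 and POLD2, which were also called lower on the relative scale. Direction depended on the scale: 11 members were below 0 as deposited and 24 on the relative scale. Of the 13 that changed sign, GINS3, POLA2, POLD3, RFC1 and RPA3 were called, as lower, on the relative scale, and none was called as deposited. The largest differences held on both scales: POLE2 (2.27 ± 0.30, relative 1.77 ± 0.32), CDC45 (2.20 ± 0.18, relative 1.67 ± 0.16) and CDC7 (2.004 ± 0.21, relative 1.504 ± 0.22) were higher in XG1. POLD2 was lower (−1.51 ± 0.19, relative −2.03 ± 0.12). CDC45 measured 73.4, 68.2 and 92.6 FPKM in the XG1 DMSO libraries and 15.7, 18.5 and 14.5 in those of AMO1. PCNA, by contrast, measured 247, 189.9 and 249 and 187, 179 and 205, which overlapped, and its difference changed sign with the scale without a call.

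Other genes of DNA replication, from lists written from general knowledge, were read beside the members. The share of all genes called lower in AMO1 at 1000 nM was 65.7% as deposited and 24.5% on the relative scale, so a list near those shares did not stand apart by its count. In AMO1 at 1000 nM, 14 of 14 origin licensing and MCM genes were called lower (median −3.43), with CDT1, the licensing factor that DTL helps to remove, at −4.07 ± 0.18. Its mean was 97.3 ± 6.21 FPKM in DMSO and 4.87 ± 0.310 at 1000 nM. With the relative scale 11 were called, and the origin recognition subunits ORC3, ORC4 and ORC5 were not. Among 10 genes of DNA precursor supply 9 were called lower, 8 on the relative scale, and RRM2, the S-phase subunit of ribonucleotide reductase, fell from 196 ± 9.91 to 5.83 ± 1.06 FPKM (−4.86 ± 0.19). SAMHD1, which breaks down nucleotides, was called on neither scale. All 4 tested S-phase cyclins and kinases were lower on both scales, with CCNA2 at −3.88 ± 0.19, as were 11 of 11 S-phase checkpoint genes, of which 6 were called on the relative scale (CDC25A −3.48 ± 0.22). Of 11 genes for E2F and pocket proteins 10 were lower, led by E2F1 at −3.61 ± 0.25, and 6 on the relative scale, where RBL2 was called higher.

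Polymerases outside the fork were read for contrast. Of 9 repair and translesion polymerase genes tested in AMO1, 6 were called lower at 1000 nM (median −0.89), close to the 65.7% of all genes, and on the relative scale 3 were, where 24.5% of genes were, with 1 higher, POLH, and a median of 0.00. Of the list, POLQ changed by −1.38 ± 0.18 and MAD2L2 by −1.52 ± 0.22. Mitochondrial DNA replication, which uses its own polymerase and helicase, had 10 of 10 genes lower, 6 on the relative scale (median −1.37 and −0.53), with TFAM, the packaging protein of that genome, at −1.79 ± 0.18.

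In XG1 at 1000 nM, where 13.2% of all genes were called lower as deposited and 10.2% on the relative scale, 12 of 14 licensing genes were called lower, 10 on the relative scale (CDT1 −1.59 ± 0.14). In precursor supply 6 of 10 were, on both scales (DUT −1.40 ± 0.16). Of the cyclins and kinases 3 of 5 were called lower as deposited, with CCNA2 at −1.18 ± 0.17, while on the relative scale CCNA2 was the 1 called lower and CCNE1, the G1/S cyclin E1, named here after its values were seen, the 1 called higher. In the checkpoint 3 of 11 were called lower on both scales (CHEK1 −1.44 ± 0.27). The counts nearer the share of all genes were 1 of 13 in E2F and pocket proteins (E2F1) and 1 of 11 in repair polymerases (POLQ), on both scales. In mitochondrial replication 4 of 11 were called, 3 on the relative scale (TOP1MT −1.32 ± 0.14). At 100 nM, where the shares of all genes were 10.0% and 7.31%, 4 of 14 licensing genes were called lower, 3 on the relative scale, with MCM6 at −1.02 ± 0.16. Of 10 precursor genes 2 were, DUT and TYMS, and DUT alone on the relative scale.

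**Figure D5:**
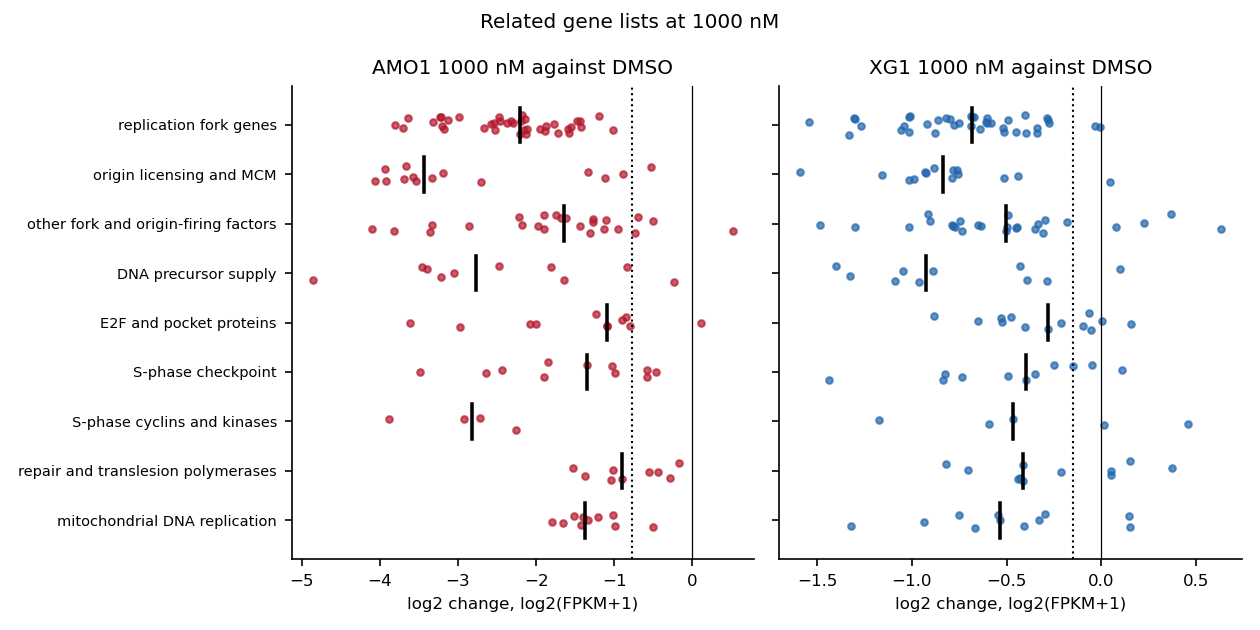
Log2 change at 1000 nM of each gene of the fork group and of 8 related lists, in AMO1 (left) and XG1 (right), with a bar at the median of each list and a dotted line at the median of all genes tested. In AMO1 the licensing list sits lowest (median −3.43), the fork genes at −2.20 and the repair polymerases at −0.89, beside a median of all genes of −0.77, and in XG1 the fork genes sit at −0.68.

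Among 24 other fork and origin-firing genes tested in AMO1 at 1000 nM, 22 were called lower and 1 higher, and on the relative scale 18 lower and 2 higher. The largest fall was in KIAA0101, the PCNA-binding protein also called PCLAF, at −4.10 ± 0.24. In XG1 it also had the largest change of the list, at −1.48 ± 0.13. The gene called higher was POLD4, the smallest subunit of polymerase delta, picked out after its values were seen. POLD4 measured 7.87, 8.35 and 7.25 FPKM in AMO1 with DMSO, 17.0, 17.2 and 19.8 at 100 nM and 13.3, 8.50 and 13.98 at 1000 nM. All treated libraries lay above all DMSO libraries. The change was 1.11 ± 0.21 at 100 nM, called in each of 6 fits that left out 1 library, and 0.52 ± 0.21 at 1000 nM, called in 1 of 6, the fit without replicate 2 of the 1000 nM group. On the relative scale it was 1.48 ± 0.09 and 1.40 ± 0.09, while POLD1, POLD2 and POLD3 were at −1.39 ± 0.16, −1.16 ± 0.08 and −1.58 ± 0.16 at 1000 nM. POLD4 was not called in XG1 as deposited (0.63 ± 0.21 at 1000 nM, adjusted p = 0.062, limma), and was on the relative scale (0.80 ± 0.18). In XG1 the histone chaperone ASF1B was the gene of this list called higher at 100 nM (0.71 ± 0.15), whereas in AMO1 it fell by 1.87 on the log2 scale at that dose.

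CDK7, the target of the compound, and the transcription factors MYC and E2F1 were read in the same fits. CDK7 changed by −1.19 ± 0.19 in AMO1 at 1000 nM, and by −0.30 ± 0.17 on the relative scale, where it was not called (adjusted p = 0.18, limma). In XG1 it was not called at either dose. MYC changed by −2.46 ± 0.35 in AMO1 at 1000 nM, and by −1.54 ± 0.29 on the relative scale, called on both. In XG1 its change at 100 nM was called as deposited (−1.36 ± 0.32) and not on the relative scale (−1.17 ± 0.37, adjusted p = 0.061, limma). At 1000 nM it was called on neither scale (−0.72 ± 0.32 as deposited). E2F1 stood at 38.1 ± 5.20 FPKM in AMO1 with DMSO, 8.30 ± 2.50 at 100 nM and 2.28 ± 1.02 at 1000 nM. In XG1 it stood at 11.2 ± 1.36, 7.22 ± 0.799 and 5.66 ± 1.39 FPKM, a change of −0.88 ± 0.20 at 1000 nM. The line difference of E2F1 at 1000 nM was 2.73 ± 0.32, which was called.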

How the data were processed

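The libraries were QuantSeq 3′ messenger RNA libraries of total RNA, 3 per group. Per the submitters' processing notes, the authors aligned reads with HISAT2 to hg19 and made gene values with Cuffnorm. The sources used here give no versions, strand use or read depth. Deposited values are in FPKM, which give no counting error, so precision comes from the replicates. That the values were rescaled to the 92 ERCC spike-ins is inferred from their level sums and is not stated in the labels.

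The labels gave each sample's line and dose. The 39 members and all gene lists were chosen with earlier results of these data known. Symbols were matched by name, with KIAA0101 and C10orf2 typed as older symbols of PCLAF and TWNK. Tests were run on log2(FPKM + 1), for genes that reached 1 FPKM in 3 or more libraries of a fit (10503 in AMO1, 11810 in XG1, 12792 together), with limma 3.58.1 in R 4.3.3: a linear model of group with a mean-dependent prior variance, two-sided, Benjamini-Hochberg adjusted over all tested genes, threshold 0.05. Each line's 9 libraries were fitted together. XG1 against AMO1, and the line difference, used all 18. The relative scale divides FPKM by median-ratio size factors. The fits were tested on simulated data, but no outcome is given here, so nothing is concluded from that test.

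Named with values in every library were the genes of each role with the largest and smallest change in AMO1 at 1000 nM, PCNA, CDC45, RPA3 and the 5 with the largest line difference; from the other lists, the gene with the smallest adjusted p or largest change; and CDK7, MYC and E2F1. Further genes were named after their values were seen. Promoters and gene overlaps come from RefSeq (GRCh38.p14) and were matched by symbol; no coordinate was set against the hg19 values. Alternatives were a pseudocount of 0.25, no filter or one at 5 FPKM, the relative scale, a fit of the compared groups alone, a replicate block and leaving out each library. A fit without replicate 2 of XG1 at 100 nM, and another without replicate 2 of AMO1 at 1000 nM, were added after seeing the data for comparisons that do not contain those groups.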

Additional observations from a re-analysis of the deposited data

Results flagged for a closer look

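The change against DMSO was compared between XG1 and AMO1 by a test of the difference itself (the interaction term of the 18-library fit). It differed for 34 of 39 fork genes at 1000 nM and for 25 at 100 nM, all above 0 as XG1 minus AMO1. Of all genes tested, 32.8% and 5.37% were called in that direction. On the relative scale 30 and 26 fork genes were, where 10.1% and 6.28% of genes were. At 1000 nM the XG1 change minus the AMO1 change was 3.02 for GINS2, 2.92 for CHAF1A, 2.88 for FEN1, 2.86 for DSCC1 and 2.60 for DTL, all on the log2 scale. At 100 nM it was 2.25 for GINS2, 2.13 for DSCC1, 2.09 for FEN1, 2.004 for CHAF1A and 1.84 for DTL. All 10 values are above 0. At 1000 nM the means of these genes fell in both lines, and further in AMO1. At 100 nM DSCC1 and DTL had lower means in both lines. In XG1 at 100 nM the means of GINS2, FEN1 and CHAF1A stood at 104.9%, 113.9% and 113.7% of DMSO, none called. For those genes the difference at 100 nM was a fall in AMO1 alone. Without replicate 2 of AMO1 at 1000 nM the count at 1000 nM was 30, where 3264 of 12767 genes were called above 0. Without replicate 2 of XG1 at 100 nM the count at 100 nM was 22, where 468 of 12641 genes were. The part that the plasma cell and erythroid genes of the libraries labelled XG1 play in this difference was not tested. With 3 samples a group, no test for outlying libraries was run. The pair that stood apart was seen in gene totals, counts of lowest members and principal components, and was kept in the main fits.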

How the results depend on the processing

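Against a count of 27 fork genes lower in AMO1 at 1000 nM than at 100 nM, fitting without a filter on low values gave 14. Over all genes the lower calls were 500 of 26249 without the filter and 2460 of 10503 with it. Without the filter the fork counts were also 10 against 21 for XG1 at 1000 nM, 3 against 6 at 100 nM and 0 against 2 between the doses. The calls over all genes there were 914, 549 and 5 of 26249, against 1558, 1181 and 38 of 11810. Between the XG1 doses the fork count was 4 on the relative scale, where 89 of 11810 genes were lower. It was 0 with only the compared groups, where 3 of 11340 were. The cause was not tested. Leaving out 1 library at a time gave 38 to 39 members called in AMO1 at 1000 nM, 36 to 39 at 100 nM and 18 to 31 between its doses. In XG1 it gave 11 to 24 at 1000 nM, 2 to 11 at 100 nM and 0 to 5 between the doses. For XG1 against AMO1 in DMSO it gave 19 to 19, and for the line difference 30 to 34 at 1000 nM and 18 to 28 at 100 nM. The calls over all genes moved in the same fits. Where the fork count was lowest, 507 of 10346 genes were lower between the AMO1 doses. In XG1 756 of 11649 were lower at 1000 nM and 415 of 11649 at 100 nM. In the line difference at 100 nM 368 of 12725 were above 0. The 38 members in AMO1 at 1000 nM did not reflect a lost call. Without a DMSO library of AMO1, POLE2 no longer reached 1 FPKM in 3 libraries, so it was not tested at either dose.

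On the relative scale 13 members changed sign between the lines in DMSO: CLSPN (−0.042), GINS3 (−0.40), ORC6 (−0.27), PCNA (−0.27), POLA1 (−0.36), POLA2 (−0.37), POLD3 (−0.40), PRIM1 (−0.29), RFC1 (−0.32), RFC4 (−0.34), RPA1 (−0.24), RPA3 (−0.49) and TIMELESS (−0.25). Of these 5 were called there, GINS3, POLA2, POLD3, RFC1 and RPA3. The other signs that turned on that scale, all without a call on either, were those of PRIM2 (0.22) and TIMELESS (0.095) between the AMO1 doses, RFC2 (0.15) and RPA1 (0.15) in XG1 at 1000 nM, CLSPN (0.14), GINS3 (0.14), GINS4 (0.12), POLD1 (0.016), POLE (0.0044) and RFC5 (0.18) in XG1 at 100 nM, and RFC1 (−0.15) and RPA3 (−0.17) in the line difference at 1000 nM. With the pseudocount of 0.25 the line difference of CDC7 (0.12) at 100 nM turned. Leaving out 1 library turned 43 values, none called either way. Their ranges over libraries were PRIM2 (−0.29 to 0.13) between the AMO1 doses, RFC2 (−0.25 to 0.15) and RPA1 (−0.20 to 0.065) in XG1 at 1000 nM and CLSPN (−0.22 to 0.13), GINS2 (−0.020 to 0.14), GINS3 (−0.14 to 0.18), GINS4 (−0.21 to 0.073), LIG1 (−0.082 to 0.18), POLD1 (−0.30 to 0.0068), RFC2 (−0.15 to 0.41) and RFC5 (−0.10 to 0.10) in XG1 at 100 nM. Between the XG1 doses they were ATAD2 (−0.46 to 0.039), DBF4 (−0.20 to 0.080), ORC6 (−0.24 to 0.0016), PRIM1 (−0.37 to 0.072), RFC2 (−0.42 to 0.14) and RFC4 (−0.44 to 0.039). In DMSO between the lines they were POLD3 (−0.072 to 0.16), RFC3 (−0.13 to 0.014) and RPA3 (−0.028 to 0.093), and in the line difference POLE2 (−0.12 to 0.54) at 1000 nM and CDC7 (−0.27 to 0.014) and POLE2 (−0.028 to 0.52) at 100 nM.

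The replicate numbers were checked as a pairing. Deviations of same-numbered samples correlated between −0.178 and 0.157, and not every sample correlated best with its own number. Between DMSO and 100 nM in XG1 each sample did (0.045, 0.157 and 0.151). Deviations from a mean of 3 samples do not settle whether the numbers mark a pairing. With a replicate block the count between the XG1 doses was 1, where 37 of 11810 genes were lower. Counts elsewhere were within 1.5 times of those reported. Examples were 16 for XG1 at 1000 nM, where 1366 of 11810 genes were lower, and 19 for the line difference at 100 nM. In the latter 454 of 12792 genes were above 0.

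Among single members, the pseudocount of 0.25 left 344 values with their direction and call, with 2 losing a call and 4 gaining it, and leaving out libraries left 2418, with 163 losing a call and 22 gaining it. No depth is given to bound the members under 1 FPKM in treated AMO1 libraries.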
